A study of Homo sapiens with 2 samples.

Results

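A set of 1551 strong RUNX2 binding sites shared with MTA1 lay deep inside protein-coding genes of MDA-MB-231 cells. They were chosen from the RUNX2 peak list as the peaks with a score of 20 or more that shared at least 1 bp with an MTA1 peak, and whose centre lay inside a protein-coding gene and more than 10 kb from every annotated gene end on chromosomes 1 to 22 and X. They made up 2.51% of the 61694 RUNX2 peaks used and 21.9% of the 7070 strong shared ones. The score, the overlap and the position therefore chose these members and are given below as a description.

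MDA-MB-231 is a widely used human cell line from a triple-negative breast tumour, grown here in DMEM with serum, and the labels give no treatment or genetic change. The study names CUT&Tag as the assay, in which an antibody directs a transposase to the bound protein. The labels instead describe ChIP libraries made by ligation, so the assay is uncertain. RUNX2 had 1 library and MTA1 had 1. There was no replicate, no control library was used here, the read depth of both libraries is unknown, and the scale of the score is not stated. No test was therefore made, and each 95% interval covers counting error over peaks or genes only.

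RUNX2 is a DNA-binding factor of the Runt family, best known as the master regulator of osteoblasts, and breast cancer cells that spread to bone can express it. MTA1 acts as a subunit of NuRD, a complex that combines a nucleosome remodelling ATPase with histone deacetylases. Introns of long genes carry many enhancers, which can act on the host gene or on a gene farther away, and they also carry alternative promoters from which shorter transcripts start. A binding site inside a gene does not tell which gene it acts on.

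The sequences shown first are those of annotated starts inside the host genes, where the reference sequence under a member could be read. Of the 1551 members, 48 overlapped at least 1 of 55 RefSeq promoter windows, each running from 250 bases before to 50 bases after a transcript start, and 54 of these windows belonged to the host gene itself. Windows were at hand for 897 of the 1107 host genes, so the number at starts is a lower limit. Capitals mark every TGTGGT or its reverse complement ACCACA, the core of the RUNX site. They also mark every TGANTCA, taken here as the site of AP-1 factors with any middle base, which was A in GNAI2. This pattern is its own reverse complement apart from the middle base. Both strands were searched. The motifs can share at most 1 base. The 7 windows were chosen after their values were seen: ANO10 and RANGAP1 had the highest MTA1 ranks, GNAI2 and ABL2 held both motifs, LTBP1 held 2 RUNX cores under a high RUNX2 score, and the SMAD3 pair came from the same gene with unlike MTA1 ranks. All are read 5′ to 3′ on the strand of the gene (GRCh38.p14).
ANO10, chr3:43621962-43622261, minus strand: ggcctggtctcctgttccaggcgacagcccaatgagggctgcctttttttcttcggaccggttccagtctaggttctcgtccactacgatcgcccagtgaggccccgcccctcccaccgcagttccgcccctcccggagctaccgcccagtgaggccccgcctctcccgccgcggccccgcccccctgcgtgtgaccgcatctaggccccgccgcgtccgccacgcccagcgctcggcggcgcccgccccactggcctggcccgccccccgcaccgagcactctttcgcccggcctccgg
RANGAP1, chr22:41286138-41286437, minus strand: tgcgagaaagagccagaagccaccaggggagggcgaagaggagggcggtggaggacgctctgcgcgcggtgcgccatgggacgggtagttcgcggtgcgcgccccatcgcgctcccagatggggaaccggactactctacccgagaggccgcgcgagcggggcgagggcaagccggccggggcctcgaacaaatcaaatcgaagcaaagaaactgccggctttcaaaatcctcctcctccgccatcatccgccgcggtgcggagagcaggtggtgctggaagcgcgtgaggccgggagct
GNAI2, chr3:50246660-50246959, plus strand: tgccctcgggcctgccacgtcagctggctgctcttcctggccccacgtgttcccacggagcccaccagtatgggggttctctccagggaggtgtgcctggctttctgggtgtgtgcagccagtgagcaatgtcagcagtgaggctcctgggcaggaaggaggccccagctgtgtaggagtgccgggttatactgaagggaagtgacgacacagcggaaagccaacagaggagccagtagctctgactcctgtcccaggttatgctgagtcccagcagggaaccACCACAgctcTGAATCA
ABL2, chr1:179143027-179143326, minus strand: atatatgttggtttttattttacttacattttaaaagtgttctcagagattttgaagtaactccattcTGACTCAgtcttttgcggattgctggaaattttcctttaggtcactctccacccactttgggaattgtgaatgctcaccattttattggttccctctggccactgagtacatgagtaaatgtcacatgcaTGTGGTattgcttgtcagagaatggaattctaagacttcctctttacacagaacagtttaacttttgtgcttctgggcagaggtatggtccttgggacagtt
LTBP1, chr2:33134346-33134645, plus strand: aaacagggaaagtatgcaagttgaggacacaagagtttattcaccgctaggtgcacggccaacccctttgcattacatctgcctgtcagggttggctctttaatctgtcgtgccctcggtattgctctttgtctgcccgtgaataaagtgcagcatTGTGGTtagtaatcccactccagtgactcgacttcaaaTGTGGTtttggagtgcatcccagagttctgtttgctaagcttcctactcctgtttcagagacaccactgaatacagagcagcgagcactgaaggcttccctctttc
SMAD3, chr15:67125492-67125791, plus strand: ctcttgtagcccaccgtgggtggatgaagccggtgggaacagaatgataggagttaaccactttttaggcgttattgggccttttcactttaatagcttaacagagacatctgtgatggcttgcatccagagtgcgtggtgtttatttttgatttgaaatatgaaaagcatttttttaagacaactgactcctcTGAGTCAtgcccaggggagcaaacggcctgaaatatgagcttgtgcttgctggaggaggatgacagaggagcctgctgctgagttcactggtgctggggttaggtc
SMAD3, chr15:67098429-67098728, plus strand: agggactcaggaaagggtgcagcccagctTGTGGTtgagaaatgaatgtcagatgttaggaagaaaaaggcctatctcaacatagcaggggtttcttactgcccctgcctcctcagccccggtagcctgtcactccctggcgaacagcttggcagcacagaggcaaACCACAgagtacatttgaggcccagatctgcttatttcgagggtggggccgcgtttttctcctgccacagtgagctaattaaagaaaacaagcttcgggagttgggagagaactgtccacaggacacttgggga

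A RUNX core was present in 11 of the 55 windows (exact interval 10.4% to 33.0%), against 11.3% of 21942 windows of all protein-coding genes and 13.1% of 34683 windows of all genes. The AP-1 site was present in 8 (14.5%, 6.50% to 26.7%), against 6.17% of protein-coding windows and 7.70% of all windows. The interval of the RUNX core included both comparison shares. That of the AP-1 site included the share of all windows and lay just above that of protein-coding ones. Some of the 55 windows overlap each other, and 1 AP-1 site is counted in both windows of RTN4, so these intervals are too narrow. The median GC content was 62.3% in the overlapped windows and 62.3% in all protein-coding ones. ANO10, a member of the anoctamin membrane protein family, and RANGAP1, the activator of the Ran GTPase, held neither motif in windows of 73.7% and 67.3% GC. A match is a description of the letters, and its absence says only that they are not in this window.

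The 1551 members had RUNX2 scores from 20.02 to 108 with a median of 30.7, in a list with a median of 6.70. Their median width was 326 bp (121 to 1222), against 151 bp over all RUNX2 peaks. The members just above the score limit lay in PINX1 and USP42 at 20.02, and the nearest peaks below it lay in SVIL at 19.997, SYNPO at 19.97 and AIG1 at 19.97. The distance limit ran equally close, with LIMD1 at 10.01 kb inside it and OTULINL at 9.98 kb outside it. The limits thus cut through a continuous range.

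RUNX2 and MTA1 peaks sat on nearly the same bases. The centres of the member and of its MTA1 peak were 27.5 bp apart at the median, with quartiles of 12 and 53.5 bp and a largest gap of 427.5 bp. The rule asks for overlap, and strong shared peaks elsewhere were as close. Their median offset was 27.5 bp in intergenic sequence and 29 bp at protein-coding gene ends. In 1424 members (91.8%) the RUNX2 centre fell inside the MTA1 peak. A single MTA1 peak was overlapped by 1510 members, and 41 overlapped 2. The RUNX2 peak was the wider of the pair in 1168 members (75.3%).

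The MTA1 rank of the members spanned the whole MTA1 list. For each member the score of its highest overlapping MTA1 peak was turned into a percentile, the share of the 42673 MTA1 peaks with a lower score. The median was the 77.1 percentile (75.4 to 78.6), with quartiles at 58.3 and 89.2. MTA1 scores behind it ran from 3.02 to 66.5 with a median of 13.8. Although every member was a strong RUNX2 peak, 283 (18.2%) had an MTA1 peak below the median of its list and 29 lay in the lowest 10%. The rank rose only weakly with the RUNX2 score inside the set (Spearman rho 0.187 over 1551 peaks of the same 2 libraries, a description).

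**Figure D1:**
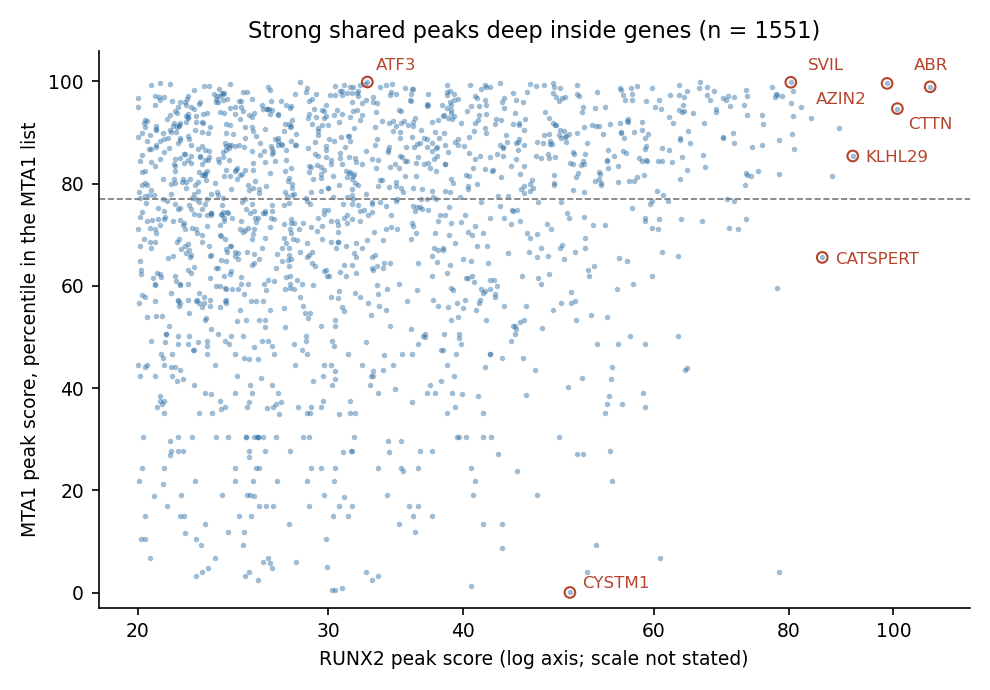
Each point is 1 of the 1551 members, by its RUNX2 score (log axis) and the percentile of its MTA1 peak in the MTA1 list. The dashed line is the median of 77.1, and circled members are named by host gene. Points fill the range from 0.00703 in CYSTM1 to 99.9 in ATF3, and thin out at low MTA1 rank towards high RUNX2 scores.

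The highest RUNX2 score among the members was in ABR. This peak (chr17:1060958-1061419) had a RUNX2 score of 108 and an MTA1 score of 46.0, the 98.9 percentile. The next was in CTTN, the gene of the actin-branching protein cortactin (chr11:70423925-70424554), with a RUNX2 score of 101 and an MTA1 percentile of 94.7. AZIN2, an antizyme inhibitor of polyamine metabolism (chr1:33099274-33099895), followed with a score of 98.7 and the 99.6 percentile, the only gene among the 10 highest of both rankings. High RUNX2 scores did not always come with a high MTA1 rank. The peak in CATSPERT, a gene of the sperm calcium channel, had a RUNX2 score of 85.9 and an MTA1 percentile of 65.6. In COLGALT2, which glycosylates collagen, the score was 87.8 and the percentile 81.5, and in KLHL29 they were 91.7 and 85.4. The other 4 of the 10 highest were in TSPAN18, METTL15, NRP1 and FGGY, with scores of 80.9 to 89.1 and percentiles of 86.8 to 94.95. NRP1 is the neuropilin co-receptor of semaphorins and VEGF.

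The ranking by MTA1 brought up other genes. ATF3, a stress-induced factor that binds AP-1-like sites, held the member with the highest MTA1 score (chr1:212608355-212608812), 66.5, beside a RUNX2 score of 32.6. DYNLRB1, a light chain of dynein, had an MTA1 score of 65.3 and a RUNX2 score of 28.3. SVIL, the actin-binding supervillin, was high in both lists at 63.2 and 80.4. TRIM16, a ubiquitin ligase, stood at an MTA1 score of 59.8 with a RUNX2 score of 21.0, close to the limit. The remaining members of this group were in ANO10, RANGAP1, FOXK1, ATP9A and SAMD4A, and had MTA1 scores of 53.4 to 62.1.

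At the other extreme were strong RUNX2 peaks with MTA1 peaks near the lower bound of their list. CYSTM1 (chr5:140214797-140215145) had a RUNX2 score of 50.2 and an MTA1 score of 3.02, the 0.00703 percentile. TJP1, the gene of the tight junction protein ZO-1, had 40.7 and 3.28. The members in CCDC88C, SLCO2A1 and KPNA1 had RUNX2 scores of 30.3 to 30.9 and MTA1 scores of 3.10 to 3.19. The lowest score of any MTA1 peak was 3.01, so these peaks were called with little to spare. Beyond them were 238 strong RUNX2 peaks at deep positions with no MTA1 peak, whose median RUNX2 score was 25.5 and median width 240 bp, against 30.7 and 326 bp for the members.

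How often strong RUNX2 peaks were shared, and how high their MTA1 rank was, differed between locations. Over all RUNX2 peaks 45.4% shared bases with an MTA1 peak, and over all those of score 20 or more 89.0% did. Of the 1789 strong deep peaks 1551 were shared, or 86.7% (85.0% to 88.2%). The share was 96.0% (95.2% to 96.8%) of 2328 strong peaks within 3 kb of a protein-coding gene end and 83.5% (81.0% to 85.9%) of 917 strong intergenic peaks, which lay outside genes and over 10 kb from them. The interval at deep positions lay wholly below that at gene ends, while the intervals of deep and intergenic peaks overlapped. The share at deep positions rose along the whole score range, from 10.6% of 4380 peaks with scores of 3 to 5 to 66.7% of 2442 with scores of 10 to 20 and 98.3% of 230 with scores of 50 or more.

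The MTA1 rank differed in the same order. The median percentile was 77.1 (75.4 to 78.6) in the members, 92.8 (92.2 to 93.2) at gene ends and 76.1 (73.5 to 78.5) in intergenic sequence. MTA1 peaks in the top 10% of their list made up 23.1% (21.1% to 25.3%) of the members, 58.7% (56.6% to 60.8%) of the gene-end peaks and 23.2% (20.3% to 26.4%) of the intergenic ones, against 36.4% over all strong shared peaks. The median RUNX2 score did not fall with it, at 30.7 in the members and 28.3 at gene ends. Peak width did move with location, with a median of 326 bp against 391 bp for RUNX2 and of 263 bp against 371 bp for MTA1.

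The gap to gene ends was present in each band of RUNX2 score and of width. In bands of RUNX2 score of 20 to 30, 30 to 40, 40 to 50 and 50 or more, the members had median MTA1 percentiles of 73.1, 76.9, 79.9 and 85.5, and the gene-end peaks 91.1, 94.4, 94.0 and 95.9. In bands of RUNX2 width below 250 bp, of 250 to 400 bp and above, they were 65.6, 77.9 and 84.3 against 81.4, 92.5 and 94.2. Members of matched score or width were therefore lower in MTA1 rank than gene-end peaks in all 7 bands.

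Members at annotated starts inside genes stood between the other groups. Starts here are annotated transcript starts, known only where promoter windows were at hand. Such a start lay within 1 kb of the centre of 55 members (3.55%), against 2.83% of all deep RUNX2 peaks. Their median MTA1 percentile was 88.5 (85.2 to 93.5), and that of the 1496 members farther from a start was 76.4 (74.8 to 78.0). In the top 10% of the MTA1 list were 25 of the 55 (45.5%, 32.0% to 59.4%) and 334 of the 1496 (22.3%, 20.2% to 24.5%). Their median RUNX2 scores were 30.5 and 30.7, and their median MTA1 widths 342 and 261 bp. Gene-end peaks also split by the distance to a start, with a median percentile of 94.3 (93.9 to 94.8) within 1 kb and 85.7 (83.2 to 86.9) farther away. The interval of members at starts thus lay wholly above that of other members and below that of gene-end peaks at starts. The median of the whole set was 77.1 with them and 76.4 without.

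**Figure D2:**
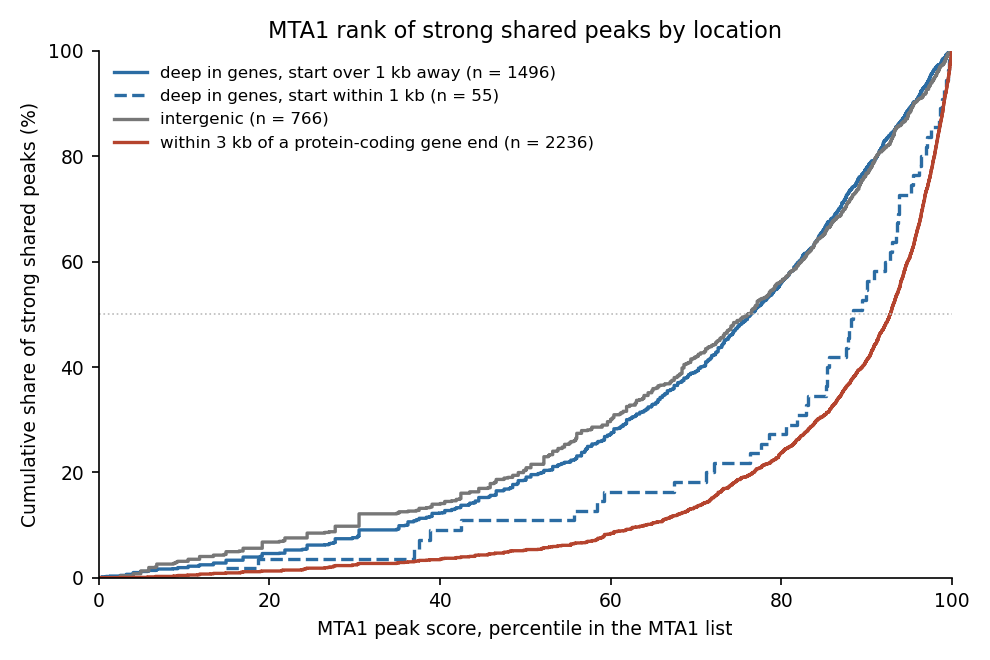
Cumulative share (percent) of strong shared RUNX2 peaks against the percentile of their MTA1 peak, for 1496 members over 1 kb from an annotated start, 55 members within 1 kb of one, 766 intergenic peaks and 2236 peaks within 3 kb of a protein-coding gene end. The first and the intergenic curve run together with medians of 76.4 and 76.1, members at starts cross 50% at 88.5, and gene-end peaks at 92.8.

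Some members overlapped annotated inner starts of signalling genes. Whether these starts are used in these cells was not tested. In SMAD3, the receptor-activated transducer of TGF-β signals, members overlapped 2 inner starts. The one at chr15:67098435-67098713 shared 279 bp with a window that held 2 RUNX cores, and had a RUNX2 score of 22.1 and an MTA1 percentile of 14.9. The one at chr15:67125653-67125882 overlapped a window with an AP-1 site, and had a score of 20.3 and a percentile of 76.3. The RUNX2 scores were alike and the MTA1 ranks far apart. In LTBP1, which holds latent TGF-β in the matrix, the member at chr2:33134306-33134638 had a RUNX2 score of 57.6 and an MTA1 percentile of 80.6. GNAI2, an inhibitory G protein subunit, had 39.0 and 93.9. The member in ABL2, a cytoskeletal tyrosine kinase, had 39.3 and 88.2. HDAC4 and GSE1, a deacetylase and a partner of co-repressor complexes, were lower at starts, with percentiles of 55.7 and 42.4.

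The members fell in 1107 host genes, of which 287 held 2 or more. Genes with any sequence over 10 kb from a gene end numbered 10105, so 11.0% of them were hosts and 2.84% held 2 or more. These shares are set by the rule. Of the hosts, 25.9% (23.4% to 28.6%) held more than 1 member, and 742 members (47.8%) shared their host with another. At least 3 members were found in 107 hosts, at least 5 in 13 and at least 7 in 6. In all, 1531 members had a single host, 19 lay in 2 overlapping genes and 1 in 3.

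Hosts were long genes. The median length of deep sequence was 27.8 kb in genes with no member, 82.1 kb in genes with 1 and 159 kb in genes with 2 or more. The share of hosts rose from 2.49% of genes with up to 20 kb of deep sequence to 32.5% of those with over 200 kb. The density went the other way, from 3.13 to 1.29 members per Mb. Long genes held members more often, while a stretch of their deep sequence of given length held fewer. Over all deep sequence the density was 1.99 per Mb (1.89 to 2.09), between 0.810 (0.754 to 0.869) in intergenic sequence and 11.3 (10.8 to 11.8) at gene ends. Assembly gaps were not taken out of these lengths, so the intergenic density can be too low.

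The genes with the most members had varied roles. PARD3, the scaffold of the PAR polarity complex, held 9. PRKAG2, a regulatory subunit of AMP-activated kinase, and STK10, a kinase of the membrane-to-actin linkers, held 8 each. SMAD3 and SHB, an adaptor of receptor tyrosine kinases, held 7 each. PRKCE, an isoform of protein kinase C, held 6. RANBP2 and SH3RF3 held the same 6, since the annotated span of RANBP2, 1123 kb long, covers SH3RF3. The Arf GTPase activator ASAP1, the transcriptional co-activator ZMIZ1 and TRIO held 5 each. LMNA, the gene of the nuclear lamins A and C, held 5 in only 37.5 kb of deep sequence, where the other 11 of the 12 hosts with the most members had 85.4 to 767 kb.

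Members of the same host differed widely in MTA1 rank. In PARD3 the RUNX2 scores ran from 23.4 to 73.0 and the MTA1 percentiles from 29.7 to 92.6. Its member with the highest RUNX2 score (chr10:34528290-34528571) stood at the 73.1 percentile, and its highest MTA1 rank (chr10:34758427-34758658) went with a RUNX2 score of 24.9. The order of the members by one list was thus not that of the other.

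In PRKAG2 the members fell into a dense stretch and 2 single sites. Going away from the gene start, those at 123, 132 and 149 kb had RUNX2 scores of 59.0, 57.9 and 30.9 and MTA1 percentiles of 86.7, 99.2 and 98.2. Those at 176, 178 and 189 kb had scores of 21.1, 53.4 and 57.2 and percentiles of 35.2, 80.9 and 98.7. The single sites at 279 and 304 kb had scores of 31.6 and 22.3 and percentiles of 81.4 and 75.8. The weakest member of the stretch lay within 2 kb of a strong one and had the lowest MTA1 rank of the gene.

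In SMAD3 a strong RUNX2 site went with a weak MTA1 peak. The member nearest to the gene start, 25.8 kb away (chr15:67091223-67091558), had a RUNX2 score of 50.9 and an MTA1 percentile of 27.2. Those at 39.98 and 113 kb had RUNX2 scores of 53.8 and 52.0 and percentiles of 89.8 and 87.9. Sites of nearly equal RUNX2 score in 1 gene thus differed widely in MTA1 rank. In the 107 hosts with 3 or more members the median range of MTA1 percentiles within a gene was 31.8. The interquartile range over all members was 30.8. A full range grows with the number of members, so these are unlike measures and do not compare the spread within genes with that over all members.

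**Figure D3:**
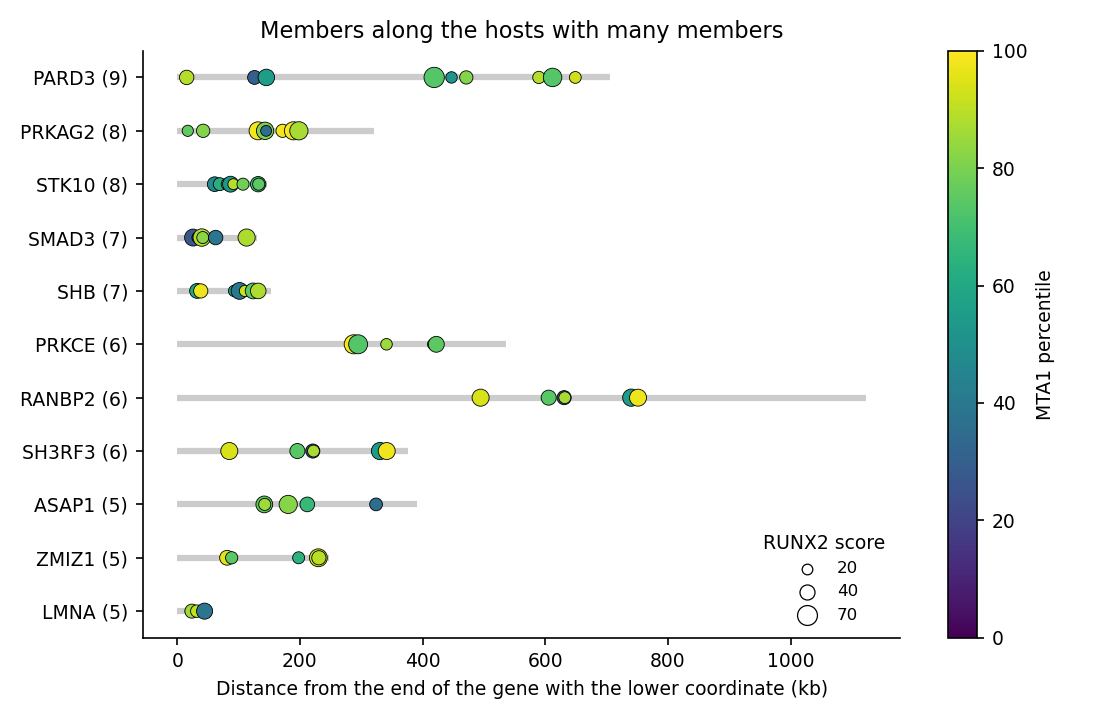
Grey bars are 11 of the 12 host genes with the most members, drawn to scale in kb from the end with the lower coordinate, with the number of members in brackets. Circles are members, sized by RUNX2 score and coloured by MTA1 percentile. The 6 circles of RANBP2 and SH3RF3 are the same peaks, and most genes show both light and dark circles.

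Neighbouring members of 1 host were usually far apart. The median spacing of 458 neighbouring pairs was 22.4 kb, and 71 pairs (15.5%) were within 5 kb of each other. The closest centres were 0.368 kb apart.

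Pooled over genes of all lengths, members were less dense far from the gene start. The deep sequence counted here was that of all protein-coding genes with known strand, hosts or not. The strand was known for 897 hosts, which gave 1270 positions with a median of 71.3 kb from the start, taken as the outer end of the gene. The density was 2.78 members per Mb of deep sequence (2.37 to 3.24) at 10 to 20 kb from the start and 1.18 (1.04 to 1.34) beyond 200 kb. Other deep RUNX2 peaks fell alongside, from 24.2 to 11.3 per Mb. The farthest bin holds only long genes, whose density was low throughout. Within genes of over 200 kb of deep sequence, a split made after the pooled values were seen, the density was 1.45 (0.664 to 2.76) at 10 to 20 kb, 1.98 (1.53 to 2.53) at 50 to 100 kb and 1.14 (0.993 to 1.297) beyond 200 kb, so the nearest bin did not stand above the rest. Over genes of all lengths again, each gene of known strand, host or not, was cut into 4 equal parts from the start on. The parts had 1.84, 2.17, 2.02 and 1.69 members per Mb. The first was not the densest. The median MTA1 percentile was 84.6 (78.9 to 88.3) in the nearest bin and 74.4 (72.3 to 77.4) in the farthest, while the median RUNX2 score was 30.5 and 29.9. In the genes of over 200 kb it was 71.4 (48.5 to 97.2) in the nearest bin, with 9 members, and 74.4 (72.3 to 77.7) in the farthest. Measured from the far end of the gene, the median percentile was 80.5 (75.8 to 84.4) at 10 to 20 kb and 71.4 (65.3 to 75.8) beyond 200 kb. Without the members within 1 kb of an annotated start the nearest bin from the gene start was at 83.4 (74.7 to 87.1), and its interval then overlapped that of the farthest bin.

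**Figure D4:**
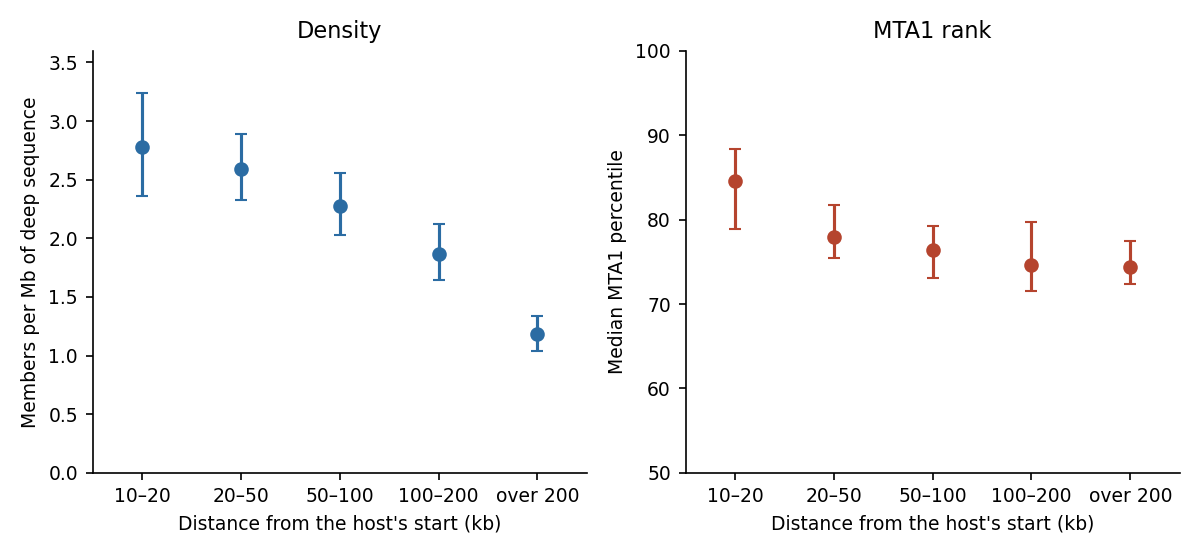
Left, members per Mb of deep sequence with exact Poisson 95% intervals. Right, their median MTA1 percentile with exact order-statistic 95% intervals, on an axis that starts at 50. Both are given by distance from the gene start in kb over genes of all lengths, and fall from 2.78 to 1.18 per Mb and from 84.6 to 74.4. The deep sequence is that of all protein-coding genes with known strand. Far bins hold long genes only.

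Whether the start of the host itself carried peaks was examined in the same 897 genes. Peaks of both lists lay within 1 kb of the start in 47.3% of them (44.0% to 50.6%), against 48.8% of all genes with deep sequence and known strand. Hosts were longer than other genes, so the share was also taken by length of deep sequence. It was 47.5% (40.8% to 54.3%) of hosts and 52.2% (50.7% to 53.6%) of genes with no member at up to 50 kb, 52.3% (47.4% to 57.1%) and 46.1% (43.9% to 48.3%) at 50 to 200 kb, and 38.7% (32.7% to 45.04%) and 29.3% (25.4% to 33.5%) above. The direction thus turned with length, and each pair of intervals overlapped. Deep members thus occurred in genes with and without peaks at their start.

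Gene lists of cell shape and adhesion held many hosts. Genes of the actin and myosin machinery were hosts in 20 of 66 (30.3%, 19.6% to 42.9%), and those of focal adhesions in 15 of 59 (25.4%, 15.0% to 38.4%). Both intervals lay above the 11.0% of all genes. These genes are long, so the share was also set beside that of all genes weighted to the same classes of deep length, which was 17.3% and 13.8%. The intervals lay above these values as well. The lists were chosen with earlier results of these data known, so their shares are descriptions.

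The focal adhesion list held 26 members at 4.89 per Mb with a median MTA1 percentile of 89.3, above the 77.1 of all members. BCAR3, an adaptor that binds the docking protein BCAR1, held 3, with RUNX2 scores of 77.9, 69.9 and 38.7 and MTA1 percentiles of 97.5, 96.3 and 97.4. BCAR1 itself held 1 at 56.2 and 97.4. Both partners thus carried members near the top of both lists. LPP, a protein of adhesions and actin bundles, held 4, with percentiles from 70.5 to 98.9. ARHGAP23, outside the list, held the widest member of all, at 1222 bp with a score of 43.0. Integrin hosts were ITGA6, ITGB5 and ITGA2, and the last combined a RUNX2 score of 24.3 with an MTA1 percentile of 99.4. The actin and myosin list held 37 members with a lower median percentile, 69.9. It joined the high CTTN and SVIL peaks with FHOD3, a formin, at 73.2 and 97.2, and with MYLK, the myosin light chain kinase, whose 4 members had percentiles of 4.88 to 68.6.

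TGF-β and BMP signalling genes had the highest density of the lists shown, 6.91 members per Mb, with 18 members in 9 of 35 genes (25.7%, 12.5% to 43.3%, beside 12.5% for all genes of those lengths). Among ligands, TGFB2 had a RUNX2 score of 60.6 and an MTA1 percentile of 71.1, and BMP6 had 58.9 and 89.0. Of the receptors, TGFBR3 had 50.4 and 56.6 and ACVR1 had 25.6 and 64.4. Of the proteins that hold latent TGF-β, LTBP1 held 2 members and LTBP2 held 1 at 54.1 and 94.9. Of the transducers, SMAD3 held 7 and SMAD2 held 1 at 38.8 and 75.4. SKI, a repressor of SMADs, held 3 with percentiles of 30.3 to 57.0. Members thus occurred among the ligands, receptors, transducers and other groups named here, but in only 9 of the 35 genes. SMAD3 alone gave 7 of the 18.

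Hippo pathway genes were hosts in 11 of 33 cases (33.3%, 17.96% to 51.8%, beside 15.8%). They included the kinases STK3 and STK4, the co-activator WWTR1 (TAZ) at a RUNX2 score of 37.6 and an MTA1 percentile of 70.3, its DNA-binding partner TEAD1 at 23.6 and 59.95, and the antagonist VGLL4 at 33.5 and 98.9. Receptor tyrosine kinase genes were hosts in 9 of 45 cases (interval 9.58% to 34.6%, beside 16.5%), close to their length. EGFR held 3 members with scores of 34.7, 22.5 and 22.1 and percentiles of 91.3, 98.3 and 85.8, IGF1R also held 3, and MET held 1 at 24.6 and 93.7. Protein kinase C and MAP kinase genes were at 9 of 44 (20.5%, beside 15.8%), with PRKCA at 50.9 and 99.2. Wnt pathway genes were at 5 of 29 (17.2%, beside 11.0%), where the highest was TCF7L2, the DNA-binding effector, at 77.2 and 98.8. None of these last 3 intervals left out the share for genes of equal length.

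The genes of the complexes themselves were examined too. NuRD subunit genes were hosts in 0 of 12 cases, which allows a share of up to 26.5% (exact interval) and includes the 9.25% of all genes of those lengths. Subunit genes of the CUL4 ubiquitin ligase were hosts in 0 of 7 (up to 41.0%, beside 5.89%). Both groups are short, with medians of 26.2 and 13.7 kb of deep sequence. MTA1 held 1 strong shared peak, but 4.94 kb from a gene end and thus outside the rule. RUNX2 held 1 member with a score of 41.4 and an MTA1 percentile of 56.6, CUL4B held none, and RUNX1 held 2 at scores of 57.3 and 33.0. Among targets that the study names, 1 of 7 genes with deep sequence was a host (14.3%, 0.361% to 57.9%, beside 10.4%). This was NEURL1, with a score of 70.3 and a percentile of 97.2. The study tested these genes at their promoters by qChIP, whereas the rule leaves out sites within 10 kb of an annotated gene end. The host share therefore does not bear on those tests.

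The host shares of gene lists of cell identity had wide intervals, which included the share of all genes in the same length classes. Mesenchymal genes were hosts in 4 of 19 cases (21.1%, beside 13.4%), among them the collagen gene COL4A2 with 3 members, of which the strongest had a score of 63.3 and a percentile of 97.4, and CDH2 (N-cadherin) at 26.9 and 88.3. Luminal breast genes were hosts in 3 of 12 (beside 13.2%), with PRLR at 33.8 and 46.4, ESR1 at 25.7 and 73.2 and KRT8 at 20.3 and 91.1. The intervals of these shares, 6.05% to 45.6% and 5.49% to 57.2%, overlapped each other and included the share of all genes of those lengths. Long genes of neurons or muscle were hosts in 10 of 37 (27.0%, 13.8% to 44.1%), beside 32.5% for genes with over 200 kb of deep sequence. The median deep length of this list was 1055 kb, far above the lower bound of that class, so lengths were not matched. The genes of this list held 11 members in 44.1 Mb, or 0.250 per Mb, and had a median MTA1 percentile of 46.6. All genes with over 200 kb of deep sequence held 1.29 per Mb, and the median percentile of all members was 77.1. The strongest was in CTNNA2, at a score of 59.1 and a percentile of 87.4.

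**Figure D5:**
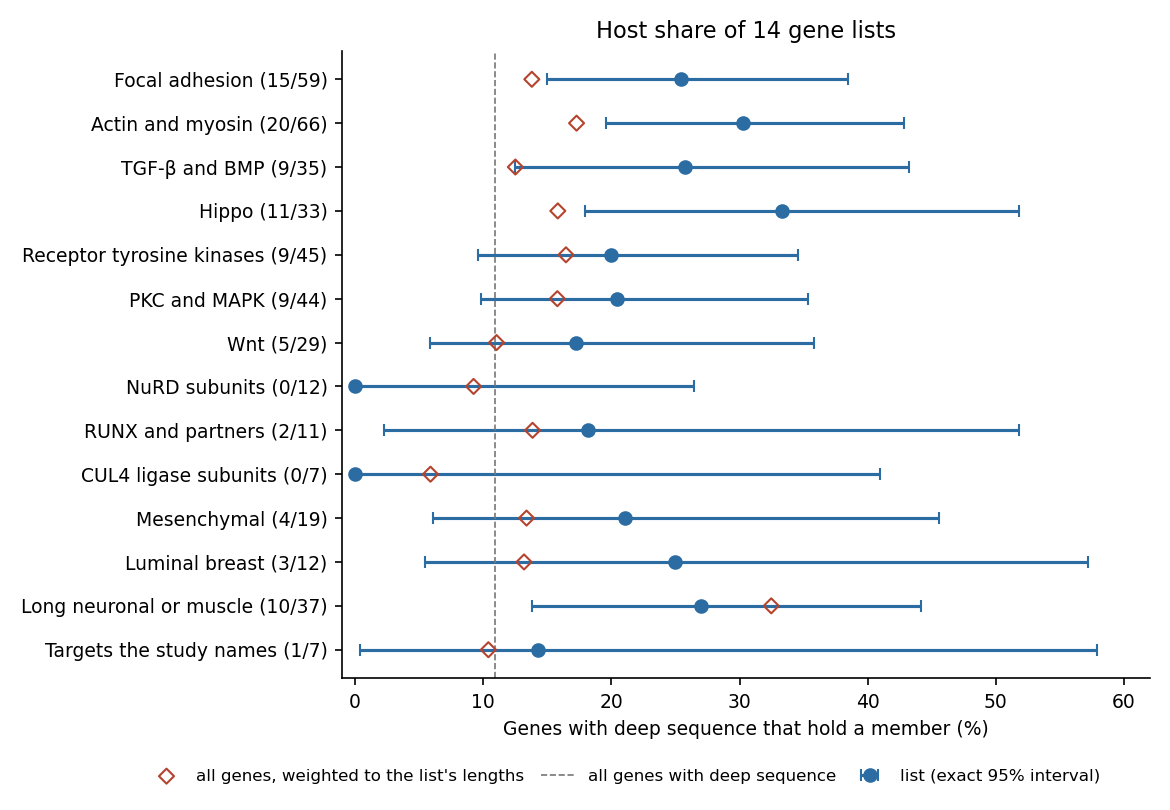
Percent of genes with deep sequence that hold a member in 14 lists, as points with exact 95% intervals, with host and gene numbers in brackets. Diamonds are the share of all genes weighted to the list's classes of deep length, and the dashed line is the 11.0% of all genes. The actin, focal adhesion and Hippo intervals lie to the right of their diamonds.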

How the data were processed

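The authors deposited 1 peak list per library with positions and a score in the fifth column, whose scale is not stated. The submitters' processing notes name CASAVA 1.4, Bowtie 0.12.8, MACS, MACS2 and hg19, without roles. However, 294 RUNX2 and 247 MTA1 peaks lie past the hg19 ends of 6 chromosomes examined, and 17.5% and 24.6% of the lists lie within 1 kb of a GRCh38 protein-coding gene end, against 4.27% and 4.57% after a move of 100 kb. Positions were therefore read as GRCh38, 1-based, with 59094 RefSeq genes of GRCh38.p14. Labels and methods name different antibody suppliers, and the labels describe ligated ChIP libraries, so both are uncertain.

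Of the 61717 RUNX2 and 42698 MTA1 peaks listed, 61694 and 42673 were used. Scores were compared between lists only by percentile, and deep sequence is protein-coding gene sequence over 10 kb from every gene end. Shares carry exact Clopper-Pearson, medians order-statistic and densities Poisson 95% intervals. Gene strand came from the RefSeq promoter table, for 15811 of 19970 protein-coding genes. Apart from bases inside promoter windows, no sequence of the peaks was used here. Genes were named as the hosts with the most members, the members with extreme score, MTA1 rank, width or distance to the limits, the top hosts of each gene list, and MTA1, RUNX2 and CUL4B. Inner starts named beside printed sequences were chosen after their values were seen. Members and gene lists were chosen with earlier results of these data known. Some genes and 1 gene list that the rule names are not reported here. The member search was tested on simulated data. The work ran in Python 3.11.15 (scipy 1.17.1, pandas 2.3.3, numpy 2.4.6, matplotlib 3.10.9).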

Additional observations from a re-analysis of the deposited data

How the results depend on the processing

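No paired analysis was possible because each antibody had 1 library, and no library could be left out. No result changed direction. Most values moved with the score limit. With a score of 15 or more there were 2108 members in 1406 hosts, 30.3% of them with 2 or more. The median MTA1 percentile was then 74.7, 82.5% of strong deep peaks were shared and the density was 2.71 per Mb. With 30 or more there were 815 members in 649 hosts, 20.5% of them with 2 or more, a median percentile of 81.0, 92.5% shared and 1.05 per Mb. An overlap of 50% of both peaks gave 1313 members in 973 hosts, 23.3% of them with 2 or more, and a median of 80.1. The gap to gene ends was then 13.4 points instead of 15.7, with 73.4% shared and 1.69 per Mb. A distance over 5 kb gave 2074 members in 1472 hosts and 2.15 per Mb, and over 20 kb 915 members in 664 hosts and 1.68 per Mb. With distances taken from protein-coding gene ends alone there were 2055 members in 1382 hosts. Of these hosts 29.3% held 2 or more, and the density was 2.15 per Mb. Ranked among MTA1 peaks that overlap a RUNX2 peak, the median was 66.0. Leaving out peaks within 1 kb of an annotated start, added after seeing the data, kept 1496 members in 1071 hosts and a gap of 16.4 points. A peak missing from a list may be weak and not absent, since depth is unknown.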

Other observations

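Members were unevenly spread over the chromosomes. Chromosome 19 had the highest density, 4.94 members per Mb of deep sequence (3.63 to 6.56, 47 members), followed by chromosome 20 with 2.95 (2.17 to 3.92). The lowest were on the X chromosome, 0.533 (0.316 to 0.842, 18 members), and on chromosome 4, 1.05 (0.777 to 1.38, 50 members). Deep RUNX2 peaks of any score moved alongside, with 45.9 per Mb on chromosome 19, 12.3 on chromosome 4 and 7.31 on the X. The median MTA1 percentile of the members was 84.3 on chromosome 19, 69.5 on chromosome 4 and 69.0 on the X. The copy number of the chromosomes in this line was not measured here, and its part in these densities was not tested.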
